A study of Mus musculus with 10 samples.

Results

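Secretory epithelial cells make proteins on the rough endoplasmic reticulum (ER), and 50 genes that carry out this work were followed here through 4 sorted cell populations of the mouse prostate. The genes were taken from a list of 8 functional steps: 11 chaperones, 5 genes of disulfide formation, 8 of translocation into the ER, 5 of signal peptide cleavage, 7 of N-glycan transfer, 5 of degradation, 4 of export and 5 stress sensors and factors. All 50 were found by their mm10 locus, and all 50 passed the filter on low values, among 12433 genes tested of 24558 genes in the table. Gene names follow the list, so that the oxidase called Ero1b by RefSeq appears as Ero1lb.

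RNA was sequenced from prostate cells of C57BL/6 mice aged 8 to 12 weeks, sorted by flow cytometry into lineage-negative (Lin-) fractions. There were 2 stromal libraries (Lin-/CD24-/CD49f-), 2 basal libraries (Lin-/CD24low/CD49fhigh), 3 Sca-1+ luminal libraries (Lin-/CD24high/CD49flow/Sca-1+) and 3 Sca-1- luminal libraries (Lin-/CD24high/CD49flow/Sca-1-). No transgene or treatment is named for any group, and every library carries a culture protocol, from which it is not clear if the cells sequenced were fresh or cultured. Separate animals are not stated for the replicates, so p-values measure the spread between libraries, which may be technical.

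A protein bound for secretion enters the ER through the Sec61 channel, loses its signal peptide, receives N-linked glycans and folds with the help of chaperones and disulfide isomerases. Misfolded proteins are returned to the cytosol and degraded, folded ones leave in coated vesicles, and membrane-bound sensors raise the expression of the folding genes when unfolded protein accumulates. The luminal cell of the prostate is a secretory cell that releases large amounts of protein into the seminal fluid.

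Values are FPKM, the fragments assigned to a transcript per kilobase of its length, relative to all mapped fragments, and were summed over the transcripts of a gene. Low values fell on steps of 1 fragment that correspond to 20.4 to 27.2 M (mega) fragments per library, and the member value with the least support, Ero1lb in basal replicate 2 at 0.797 FPKM, rests on about 59 fragments. The gates carried the markers of their names: 4 basal cell genes (Krt5, Krt14, Trp63 and Col17a1) summed to 2537 and 2571 FPKM in basal libraries, against 8.89 to 167 FPKM elsewhere. The 5 luminal secretory genes Pbsn, Tgm4, Krt8, Krt18 and Msmb summed to 31810, 51080 and 52790 FPKM in Sca-1- luminal libraries, against 805 to 9514 FPKM elsewhere. Pbsn, Tgm4 and Msmb made up most of that sum, and each was higher in all 3 Sca-1- luminal libraries than in the other 7. The keratins Krt8 and Krt18 overlapped between populations: Krt8 averaged 1170 ± 625 FPKM in Sca-1+ luminal and 1045 ± 974 FPKM in Sca-1- luminal libraries (SD, n = 3 each), and in Sca-1- luminal replicate 3 both keratins were below both basal libraries. A list of 8 fibroblast genes, led by Dcn, summed to 7339 and 5599 FPKM in stromal libraries and also to 5280, 2619 and 367 FPKM in Sca-1+ luminal libraries, against 77.1 to 138 FPKM in Sca-1- luminal libraries. The Sca-1- luminal libraries stood apart in composition: their 10 most abundant transcripts took 36.3% to 37.4% of summed FPKM, against 11.2% to 16.3% in the other 7 libraries.

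The 50 genes as a set were highest in Sca-1- luminal libraries. They made up 1.30% and 1.30% of summed FPKM in stromal libraries, 1.13% and 1.11% in basal libraries, 1.68%, 1.39% and 1.14% in Sca-1+ luminal libraries, and 2.64%, 2.38% and 2.45% in Sca-1- luminal libraries. The median member stood at 53.8 and 78.2 FPKM in stromal libraries, 40.1 and 42.7 FPKM in basal libraries, 79.9, 82.8 and 73.2 FPKM in Sca-1+ luminal libraries, and 195, 141 and 172 FPKM in Sca-1- luminal libraries. By either summary the 3 Sca-1- luminal libraries lay above the other 7 without overlap. Markers of another secretory cell type, the 4 seminal vesicle genes Svs2, Svs4, Svs5 and Pate4, were also higher in luminal libraries. They summed to 138 and 119 FPKM in stromal libraries, 113 and 80.3 FPKM in basal libraries, 7168, 4017 and 4472 FPKM in Sca-1+ luminal libraries, and 18810, 1398 and 42530 FPKM in Sca-1- luminal libraries, and all 4 were above 1 FPKM in every library. The sum in Sca-1- luminal replicate 2 was lower than in all 3 Sca-1+ luminal libraries. The part of seminal vesicle cells in the members' values was not tested. These are bulk libraries, in which fewer cells of a type and less RNA per cell cannot be told apart.

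Gene by gene, the group mean was highest in Sca-1- luminal libraries for 49 of 50 members, the exception being Ern1, and lowest in basal libraries for 44. The order of means was counted for the members only, so no share over all genes stands beside it. For 37 members every Sca-1- luminal library exceeded all 7 other libraries, a pattern found in 16.6% of all genes tested. The 13 members without it were Canx, Dnajb9, Ero1lb, Sec61a1, Sec63, Ssr1, Ssr3, Stt3a, Stt3b and 4 of the 5 stress genes (Xbp1, Atf4, Atf6 and Ern1).

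**Figure D1:**
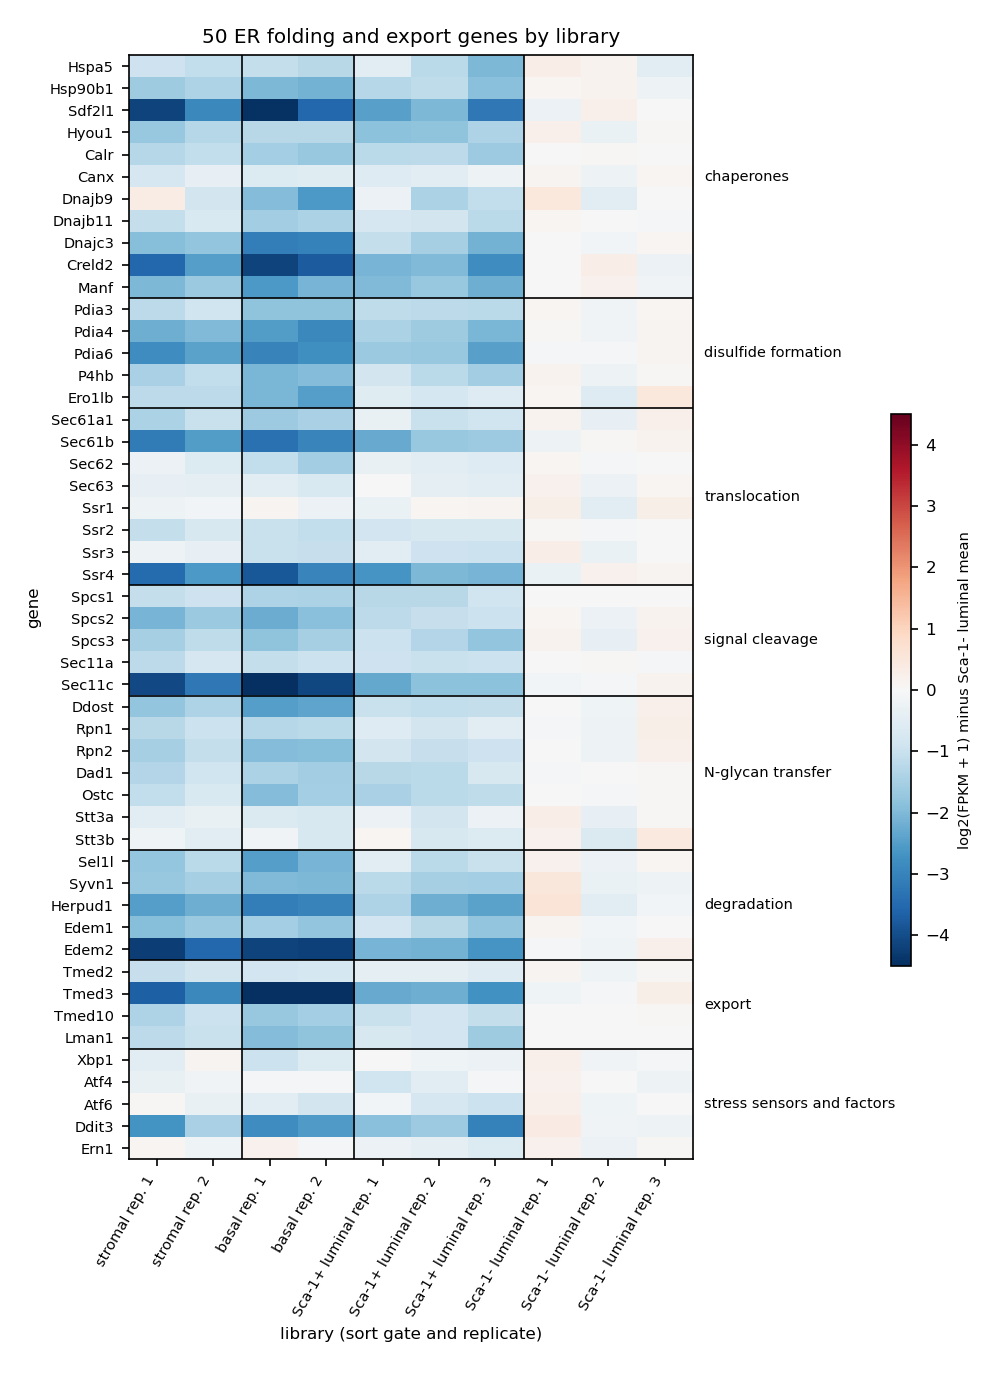
Each row is 1 of the 50 genes, grouped by functional step, and each column 1 of the 10 libraries. Colour gives log2(FPKM + 1) minus the mean of the 3 Sca-1- luminal libraries; blue is lower and red higher. Most rows are blue in the 7 stromal, basal and Sca-1+ luminal columns, while Canx, Ssr1, Stt3b and most stress genes are pale throughout.

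Differences were tested with limma on log2(FPKM + 1) over all genes, and calls were made where the p-value adjusted by Benjamini and Hochberg was under 0.05. Against Sca-1- luminal libraries, 37 of 50 members were lower in stromal libraries, 41 in basal libraries and 35 in Sca-1+ luminal libraries, and none was higher in any of the 3 comparisons. At an unadjusted p under 0.05 the lower members numbered 38 in stromal, 46 in basal and 42 in Sca-1+ luminal libraries, and those higher 0 in each. The share of all genes at this unadjusted threshold was not counted, so these counts have no background to be read against. Among all genes tested, 27.4% were called lower and 25.3% higher in stromal libraries, 25.9% lower and 20.2% higher in basal libraries, and 13.2% lower and 21.8% higher in Sca-1+ luminal libraries. The median log2 change over the members was -1.18 in stromal, -1.69 in basal and -1.06 in Sca-1+ luminal libraries. Over all genes it was -0.06 in stromal, -0.05 in basal and 0.19 in Sca-1+ luminal libraries. These 3 comparisons share the Sca-1- luminal libraries. Scaling moved the split of calls over all genes for Sca-1+ luminal libraries: 62.2% of called genes were higher with FPKM as deposited, 46.6% after median-of-ratios scaling, and 42.3% after quantile normalization. Members called numbered 44 under the first of these scalings and 40 under the other, again all lower, and the 9 added by median-of-ratios scaling were Hspa5, Canx, Ero1lb, Sec61a1, Sec62, Stt3a, Tmed2, Atf6 and Ern1. Because fibroblast transcripts were abundant in Sca-1+ luminal replicates 1 and 2, the comparison was also made with replicate 3 alone, which had the lowest fibroblast sum of the group (367 FPKM), and 29 members were then lower and 0 higher, beside 5.94% of all genes lower and 10.6% higher. In that fit the spread comes from the other groups, and the single library is taken to vary as they do. Leaving out stromal replicate 1 reduced the members called in stromal libraries to 26.

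**Figure D2:**
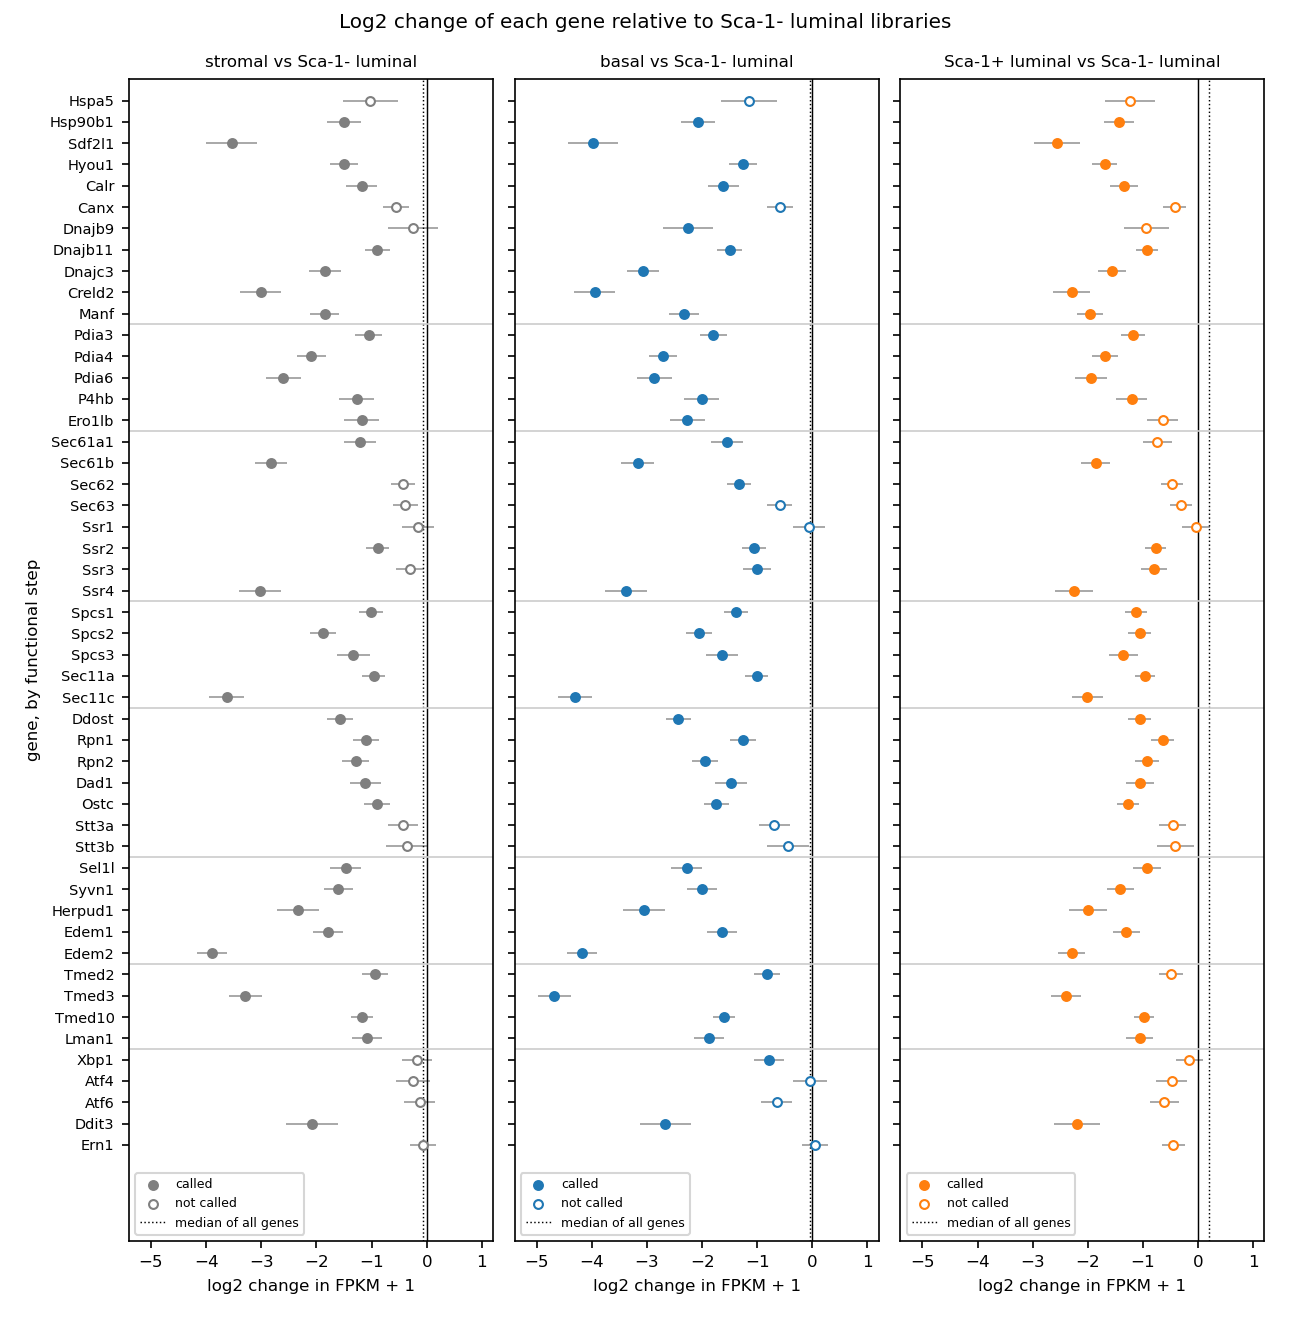
Points give the log2 change in FPKM + 1 of each gene relative to Sca-1- luminal libraries, with bars of 1 SE, for stromal, basal and Sca-1+ luminal libraries from left to right. Filled points were called at an adjusted p under 0.05, and the dotted line is the median of all genes tested. Filled points lie to the left of 0 in all 3 panels, and Sdf2l1, Sec11c, Edem2 and Tmed3 lie far to the left in each.

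By functional step, all members of signal cleavage (5 of 5) and degradation (5 of 5) were lower in each of the 3 populations. Degradation had a median log2 change of -1.79 in stromal, -2.28 in basal and -1.41 in Sca-1+ luminal libraries. For chaperones it was -1.50 in stromal, -2.07 in basal and -1.43 in Sca-1+ luminal libraries, and for disulfide formation -1.27 in stromal, -2.27 in basal and -1.20 in Sca-1+ luminal libraries. Signal cleavage stood at -1.33 in stromal, -1.64 in basal and -1.13 in Sca-1+ luminal libraries, export at -1.12, -1.74 and -1.02 in these 3 populations, and N-glycan transfer at -1.10, -1.48 and -0.93. Translocation had smaller medians, of -0.66 in stromal, -1.20 in basal and -0.76 in Sca-1+ luminal libraries. The stress sensors and factors stood at -0.18 in stromal, -0.65 in basal and -0.48 in Sca-1+ luminal libraries, with 1, 2 and 1 of 5 members called. Within single libraries, the step medians of all 3 Sca-1- luminal libraries lay above those of the other 7 at every step. The gap was narrowest for the stress genes, where stromal libraries reached -0.21 and Sca-1- luminal libraries began at -0.16 on the scale of log2(FPKM + 1) minus the Sca-1- luminal mean. Differences between steps were not tested. The step medians are not adjusted for transcript length, which moved with the log2 change over all genes (given below).

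**Figure D3:**
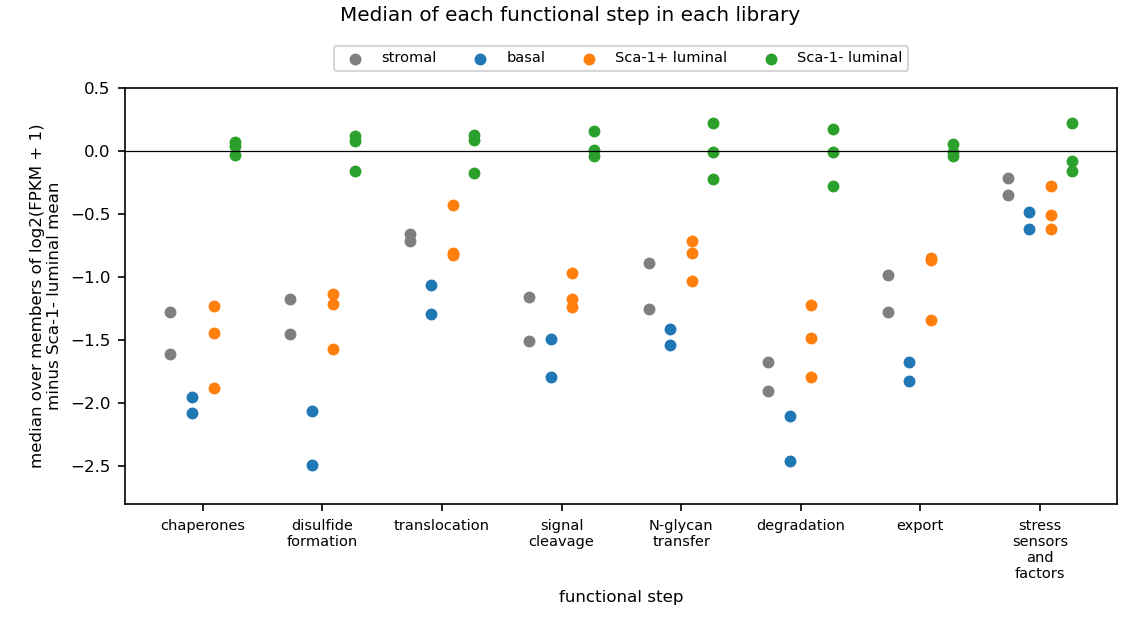
Points are libraries; the vertical axis is the median over the members of a step of log2(FPKM + 1) minus the Sca-1- luminal mean, and the horizontal axis lists the 8 steps. Within each step stromal, basal, Sca-1+ luminal and Sca-1- luminal libraries run from left to right. In the first 7 steps the lowest point is a basal library, and the stress genes show the smallest gap between Sca-1- luminal and other libraries.

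Among the chaperones, which bind unfolded chains in the ER lumen, 8 of 11 were lower in stromal, 9 in basal and 8 in Sca-1+ luminal libraries. Sdf2l1, a partner of BiP and the J-domain protein Dnajb11 located at chr16:17130138-17132383 (mm10), had 18.9 and 46.2 FPKM in stromal libraries, 15.5 and 29.8 FPKM in basal libraries, 64.8, 86.9 and 37.1 FPKM in Sca-1+ luminal libraries, and 298, 414 and 363 FPKM in Sca-1- luminal libraries. All 3 Sca-1- luminal libraries exceeded the other 7 several fold. Log2 changes here and below are those of log2(FPKM + 1) relative to Sca-1- luminal libraries, with their SE, and adjusted p-values are from limma with the Benjamini-Hochberg method. Its log2 change was -3.54 ± 0.46 (adjusted p = 0.00032) in stromal, -3.98 ± 0.46 (adjusted p = 0.00016) in basal and -2.56 ± 0.41 (adjusted p = 0.0022) in Sca-1+ luminal libraries. Creld2, an ER resident protein induced by ER stress, had 33.4 and 69.98 FPKM in stromal libraries, 21.4 and 28.9 FPKM in basal libraries, 92.5, 101 and 56.5 FPKM in Sca-1+ luminal libraries, and 396, 487 and 328 FPKM in Sca-1- luminal libraries, again without overlap between Sca-1- luminal and other libraries. For Creld2 the log2 change was -3.01 ± 0.37 (adjusted p = 0.00025) in stromal, -3.95 ± 0.37 (adjusted p = 5.6e-05) in basal and -2.29 ± 0.33 (adjusted p = 0.0015) in Sca-1+ luminal libraries.

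Hspa5 encodes BiP, the Hsp70 of the ER, and was the most abundant member. It had 1248 and 1115 FPKM in stromal libraries, 1148 and 1008 FPKM in basal libraries, 1692, 1024 and 589.5 FPKM in Sca-1+ luminal libraries, and 2971, 2660 and 1723 FPKM in Sca-1- luminal libraries. The 3 Sca-1- luminal values were the highest, but the gap was small: Sca-1+ luminal replicate 1 at 1692 FPKM lay just under Sca-1- luminal replicate 3 at 1723 FPKM. Hspa5 had log2 changes of -1.02 ± 0.50 (adjusted p = 0.12) in stromal, -1.15 ± 0.50 (adjusted p = 0.088) in basal and -1.24 ± 0.45 (adjusted p = 0.056) in Sca-1+ luminal libraries, so that it was called in none of the 3. Hspa5 was called lower in Sca-1+ luminal libraries with median-of-ratios scaling (-1.46) and when Sca-1+ luminal replicate 1 was left out (-1.62). In stromal and basal libraries it was called without Sca-1+ luminal replicate 3, at -1.02 and -1.15, a library that enters those comparisons through the shared estimate of spread.

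The co-chaperones of BiP differed among themselves. Dnajc3, a J-domain protein, had 43.4 and 48.02 FPKM in stromal libraries, 18.6 and 19.3 FPKM in basal libraries, 79.6, 59.2 and 37.9 FPKM in Sca-1+ luminal libraries, and 171, 154 and 179 FPKM in Sca-1- luminal libraries, with basal libraries lowest. Dnajc3 had log2 changes of -1.85 ± 0.29 (adjusted p = 0.00078) in stromal, -3.08 ± 0.29 (adjusted p = 5.6e-05) in basal and -1.56 ± 0.26 (adjusted p = 0.0027) in Sca-1+ luminal libraries. Dnajb9, another J-domain protein, had 98.2 and 43.6 FPKM in stromal libraries, 19.5 and 12.4 FPKM in basal libraries, 65.3, 28.3 and 35.5 FPKM in Sca-1+ luminal libraries, and 110, 55.98 and 77.8 FPKM in Sca-1- luminal libraries. Here stromal and Sca-1- luminal libraries overlapped and basal libraries were below all others. Dnajb9 was called lower in basal libraries (-2.26 ± 0.46, adjusted p = 0.0032), not in stromal (-0.25 ± 0.46, adjusted p = 0.67) or Sca-1+ luminal libraries (-0.94 ± 0.41, adjusted p = 0.1). Without Sca-1+ luminal replicate 1 it was called in Sca-1+ luminal libraries as well (-1.28).

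Canx, the membrane-bound lectin chaperone calnexin, had the smallest change of the step in Sca-1+ luminal libraries. It had 71.3 and 94.99 FPKM in stromal libraries, 78.5 and 82.1 FPKM in basal libraries, 81.4, 87.97 and 104 FPKM in Sca-1+ luminal libraries, and 134, 104 and 128 FPKM in Sca-1- luminal libraries. Sca-1- luminal and Sca-1+ luminal libraries met at 104.5 FPKM. The log2 change of Canx was -0.56 ± 0.23 (adjusted p = 0.071) in stromal, -0.59 ± 0.23 (adjusted p = 0.064) in basal and -0.42 ± 0.21 (adjusted p = 0.14) in Sca-1+ luminal libraries. Its soluble relative calreticulin, Calr, was called lower in all 3, at -1.18 ± 0.28 in stromal, -1.62 ± 0.28 in basal and -1.35 ± 0.25 in Sca-1+ luminal libraries. The other chaperones, Hsp90b1, Hyou1, Dnajb11 and Manf, were also lower in each population, with log2 changes between -2.33 (Manf in basal libraries) and -0.90 (Dnajb11 in stromal libraries). Without stromal replicate 1, Dnajb11 in stromal libraries was at -0.70 and no longer called.

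Promoters of the folding genes are known for the ER stress response element (ERSE), which the sensors' transcription factors bind, and it was searched for in the RefSeq promoter of each gene (GRCm38.p6, the assembly of mm10; 250 bases before to 50 after the gene start). Of the 50 members 40 had an entry. The ERSE was taken as CCAAT, any 9 bases and CCACG on either strand, and ERSE-II as ATTGG, any 1 base and CCACG. ERSE was present in 9 of the 40 members (22.5%) and in 37 of 27025 genes (0.137%), and ERSE-II in 2 of 40 (5.0%) and in 12 of 27025 genes (0.0444%). The core of the unfolded protein response element (UPRE), TGACG followed by TGG, was in 0 of 40 members and in 0.714% of all genes. None of the 3 searches allowed a mismatch, and a match is a description of the letters only. Promoter ends read along the start of a transcript for 36 of the 40. The promoters of Hspa5, the most abundant member, and Creld2, 1 of the members with the largest changes, are printed whole, with the ERSE half-sites in capitals (on the minus strand of the motif they read CGTGG and ATTGG).
Hspa5, chr2:34771840-34772139, plus strand: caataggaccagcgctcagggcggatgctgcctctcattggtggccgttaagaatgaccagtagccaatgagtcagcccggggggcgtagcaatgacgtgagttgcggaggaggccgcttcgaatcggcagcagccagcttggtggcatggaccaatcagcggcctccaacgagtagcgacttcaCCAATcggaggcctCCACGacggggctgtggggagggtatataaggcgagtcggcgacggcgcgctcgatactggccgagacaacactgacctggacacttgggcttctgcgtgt
Creld2, chr15:88819396-88819695, plus strand: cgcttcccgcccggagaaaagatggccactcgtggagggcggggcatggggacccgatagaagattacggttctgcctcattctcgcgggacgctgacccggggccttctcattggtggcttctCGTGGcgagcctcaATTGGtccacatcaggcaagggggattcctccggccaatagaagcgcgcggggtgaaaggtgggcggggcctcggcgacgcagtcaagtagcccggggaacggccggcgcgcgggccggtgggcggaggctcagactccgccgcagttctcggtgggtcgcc
The matches in the other members are shown with 10 bases on each side, 5′ to 3′ along the gene, so that the spacing of the half-sites can be compared. Hsp90b1 had a pair of matches, 1 in each orientation.
Hsp90b1, chr10:86705628-86705666, minus strand: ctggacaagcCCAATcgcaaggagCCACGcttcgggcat
Hsp90b1, chr10:86705523-86705561, minus strand: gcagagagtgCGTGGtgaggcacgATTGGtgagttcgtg
Calr, chr8:84847065-84847103, minus strand: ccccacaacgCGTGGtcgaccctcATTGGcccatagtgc
Canx, chr11:50325790-50325828, minus strand: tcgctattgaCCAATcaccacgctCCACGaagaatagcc
Dnajc3, chr14:118937817-118937855, plus strand: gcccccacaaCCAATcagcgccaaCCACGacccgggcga
Pdia6, chr12:17266481-17266519, plus strand: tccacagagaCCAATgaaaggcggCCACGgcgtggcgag
Ero1lb, chr13:12565672-12565710, plus strand: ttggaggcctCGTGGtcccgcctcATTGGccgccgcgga
Syvn1, chr19:6046522-6046560, plus strand: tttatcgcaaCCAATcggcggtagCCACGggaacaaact
The ERSE-II matches, with ATTGG and CCACG in capitals, were these.
Dnajb11, chr16:22857842-22857872, plus strand: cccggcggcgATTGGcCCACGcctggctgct
Herpud1, chr8:94386367-94386397, plus strand: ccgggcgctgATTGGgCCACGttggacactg
Members with the motif included Canx and Hspa5, which were called in none of the 3 comparisons with Sca-1- luminal libraries. The log2 changes of Hspa5 (given above) were nevertheless larger than those of several called members. Of the 9 members with an ERSE, 7 were called lower in stromal, 7 in basal and 6 in Sca-1+ luminal libraries, with medians of -1.50, -2.07 and -1.41. Of the other 31 with an entry, 21, 25 and 22 were called lower, with medians of -1.11, -1.64 and -0.98.

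In disulfide formation, 5 of 5 members were lower in stromal, 5 in basal and 4 in Sca-1+ luminal libraries. Pdia6, a protein disulfide isomerase, changed most in Sca-1+ luminal libraries. It had 149 and 198 FPKM in stromal libraries, 131 and 155 FPKM in basal libraries, 327, 320.1 and 192 FPKM in Sca-1+ luminal libraries, and 996, 1004 and 1147 FPKM in Sca-1- luminal libraries. The lowest Sca-1- luminal library was at about 3 times the highest other library. Its log2 change was -2.60 ± 0.32 (adjusted p = 0.00023) in stromal, -2.87 ± 0.32 (adjusted p = 0.00012) in basal and -1.94 ± 0.28 (adjusted p = 0.0015) in Sca-1+ luminal libraries. The isomerases Pdia3, Pdia4 and P4hb were called lower in all 3 populations, from -2.71 (Pdia4 in basal libraries) to -1.05 (Pdia3 in stromal libraries). Without stromal replicate 1, Pdia3 (-0.91) and P4hb (-1.09) were no longer called in stromal libraries.

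Ero1lb, an oxidase that recharges the isomerases, was the least abundant member. It had 3.42 and 3.51 FPKM in stromal libraries, 1.44 and 0.797 FPKM in basal libraries, 5.88, 4.797 and 5.84 FPKM in Sca-1+ luminal libraries, and 9.79, 5.77 and 13.2 FPKM in Sca-1- luminal libraries. Basal libraries were lowest, and Sca-1+ luminal replicates 1 and 3 lay above Sca-1- luminal replicate 2. For Ero1lb the log2 change was -1.18 ± 0.32 (adjusted p = 0.012) in stromal, -2.27 ± 0.32 (adjusted p = 0.00044) in basal and -0.64 ± 0.28 (adjusted p = 0.11) in Sca-1+ luminal libraries. Without either stromal library the stromal difference was no longer called (-1.17 and -1.19). Without Sca-1- luminal replicate 2 Ero1lb was called in Sca-1+ luminal libraries (-0.93).

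Translocation genes split between strongly and weakly changed subunits of the same complexes, which also differ in transcript length. Ssr4 (804 nt) and Sec61b (552 nt) are short and Ssr1 (9306 nt) is long. Over all genes tested, short transcripts also had the lower log2 changes in these comparisons (given below). Of 8 members, 4 were lower in stromal, 6 in basal and 4 in Sca-1+ luminal libraries. Ssr4, the delta subunit of the translocon-associated protein complex (TRAP), had 73.2 and 137 FPKM in stromal libraries, 57.9 and 106 FPKM in basal libraries, 132, 201 and 194 FPKM in Sca-1+ luminal libraries, and 669.9, 944 and 888 FPKM in Sca-1- luminal libraries. Sca-1- luminal libraries were above all others by more than 3 times. Ssr4 had log2 changes of -3.03 ± 0.38 (adjusted p = 0.00027) in stromal, -3.38 ± 0.38 (adjusted p = 0.00014) in basal and -2.25 ± 0.34 (adjusted p = 0.0017) in Sca-1+ luminal libraries. Ssr1, the alpha subunit of the same complex, had 19.1 and 20.4 FPKM in stromal libraries, 24.5 and 18.4 FPKM in basal libraries, 17.7, 23.4 and 23.98 FPKM in Sca-1+ luminal libraries, and 27.1, 15.1 and 26.6 FPKM in Sca-1- luminal libraries. All 4 populations overlapped. Ssr1 had log2 changes of -0.16 ± 0.29 (adjusted p = 0.66) in stromal, -0.06 ± 0.29 (adjusted p = 0.89) in basal and -0.04 ± 0.26 (adjusted p = 0.91) in Sca-1+ luminal libraries, and its sign turned in several alternatives, so that no direction is given.

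The remaining TRAP subunits lay between. Ssr2 was called lower in all 3 (-0.89 ± 0.21 in stromal, -1.06 ± 0.21 in basal and -0.77 ± 0.19 in Sca-1+ luminal libraries), though in stromal libraries it lost the call without stromal replicate 1 (-0.72) and in Sca-1+ luminal libraries without Sca-1- luminal replicate 1 (-0.74). Ssr3 was called in basal (-1.01 ± 0.26) and Sca-1+ luminal libraries (-0.80 ± 0.23) and stood at -0.30 ± 0.26 in stromal libraries. The Ssr3 calls were lost without either basal library (-1.04 and -0.99), and in Sca-1+ luminal libraries without Sca-1- luminal replicate 1 (-0.65), Sca-1- luminal replicate 3 (-0.81) or with Sca-1+ luminal replicate 2 left out (-0.74).

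The Sec61 channel showed the same unevenness. Sec61b, its small beta subunit, had 39.3 and 61.1 FPKM in stromal libraries, 33.4 and 43.6 FPKM in basal libraries, 73.01, 108 and 114 FPKM in Sca-1+ luminal libraries, and 302, 365 and 396 FPKM in Sca-1- luminal libraries, without overlap between Sca-1- luminal and other libraries. Its log2 change was -2.82 ± 0.29 (adjusted p = 0.00011) in stromal, -3.17 ± 0.29 (adjusted p = 5.3e-05) in basal and -1.86 ± 0.26 (adjusted p = 0.0014) in Sca-1+ luminal libraries. Sec61a1, the pore-forming subunit, had log2 changes of -1.21 ± 0.29 (adjusted p = 0.007) in stromal, -1.55 ± 0.29 (adjusted p = 0.0022) in basal and -0.74 ± 0.26 (adjusted p = 0.052) in Sca-1+ luminal libraries. It was called in Sca-1+ luminal libraries without Sca-1+ luminal replicate 1 (-0.94) or with Sca-1- luminal replicate 2 left out (-0.94), and lost the call in stromal libraries without stromal replicate 1 (-0.99). Sec62 and Sec63, which assist the channel, were at -0.43 ± 0.22 and -0.39 ± 0.23 in stromal, -1.33 ± 0.22 and -0.59 ± 0.23 in basal, and -0.47 ± 0.20 and -0.31 ± 0.20 in Sca-1+ luminal libraries, and of these 6 values that of Sec62 in basal libraries was called. Sec63 was also called in basal libraries without Sca-1+ luminal replicate 1 (-0.59) or with Sca-1- luminal replicate 2 left out (-0.71). With the length trend removed, Sec62 and Sec63 were called lower in stromal (-0.67 and -0.74) and Sca-1+ luminal libraries (-0.84 and -0.77). Sec63 was then called lower in basal libraries as well (-0.91).

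All 5 subunits of the signal peptidase were lower in all 3 populations. Sec11c, a catalytic subunit, had 47.8 and 86.4 FPKM in stromal libraries, 34.3 and 46.1 FPKM in basal libraries, 162, 223 and 222 FPKM in Sca-1+ luminal libraries, and 744, 786 and 905 FPKM in Sca-1- luminal libraries. The populations did not overlap between Sca-1- luminal, Sca-1+ luminal and the other libraries. Sec11c had log2 changes of -3.63 ± 0.31 (adjusted p = 4.5e-05) in stromal, -4.31 ± 0.31 (adjusted p = 1.9e-05) in basal and -2.01 ± 0.28 (adjusted p = 0.0012) in Sca-1+ luminal libraries. Sec11a, the alternative catalytic subunit, had 60.6 and 81.3 FPKM in stromal libraries, 65.2 and 70.5 FPKM in basal libraries, 72.02, 68.05 and 69.9 FPKM in Sca-1+ luminal libraries, and 138, 142 and 132 FPKM in Sca-1- luminal libraries. It too was highest in the 3 Sca-1- luminal libraries, and the other 7 libraries were close to each other. The log2 change of Sec11a was -0.96 ± 0.21 (adjusted p = 0.0041) in stromal, -1.01 ± 0.21 (adjusted p = 0.0035) in basal and -0.96 ± 0.19 (adjusted p = 0.0051) in Sca-1+ luminal libraries. The accessory subunits Spcs1, Spcs2 and Spcs3 ranged from -2.05 (Spcs2 in basal libraries) to -1.01 (Spcs1 in stromal libraries).

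The ratio of Sec11c to Sec11a was 0.788 and 1.06 in stromal libraries, 0.527 and 0.655 in basal libraries, 2.24, 3.28 and 3.18 in Sca-1+ luminal libraries, and 5.39, 5.53 and 6.84 in Sca-1- luminal libraries. Luminal libraries of both kinds held more Sec11c than Sec11a, stromal and basal libraries about as much or less, and none of the 3 groups overlapped the Sca-1- luminal ratios. The mean log2 ratio minus that of Sca-1- luminal libraries was -2.69 in stromal, -3.32 in basal and -1.04 in Sca-1+ luminal libraries. An exact two-sided permutation test gave p = 0.2 for stromal, 0.2 for basal and 0.1 for Sca-1+ luminal libraries, the smallest p that 2 against 3 and 3 against 3 libraries allow. Adjusted over the 12 tests of 4 gene pairs (Benjamini-Hochberg), these exact p-values were 0.267 each.

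**Figure D4:**
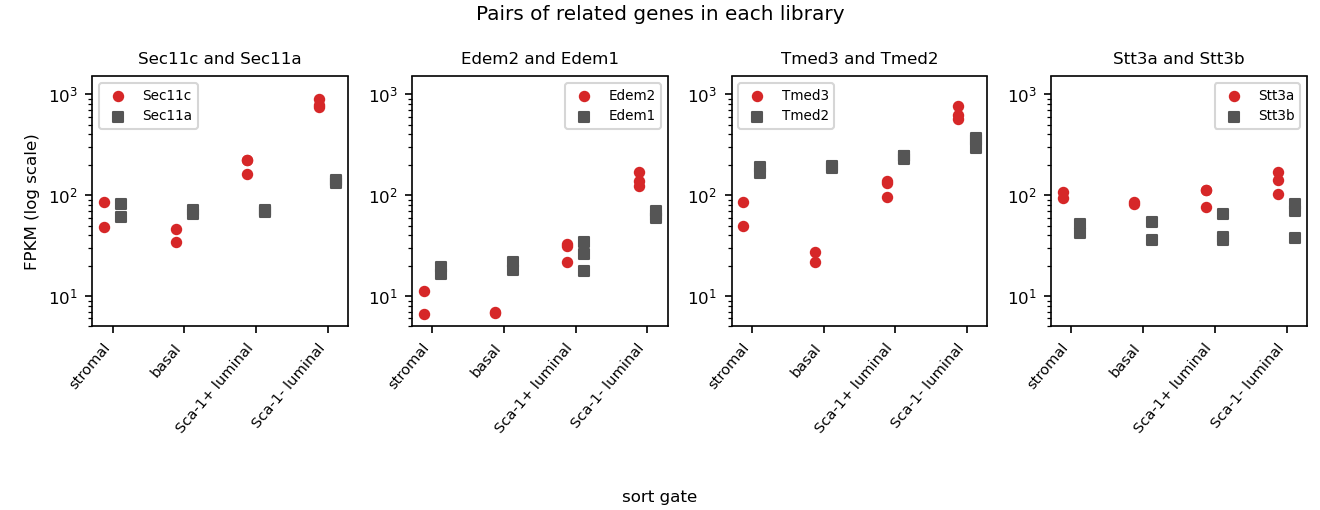
Each point is a library; the vertical axis is FPKM on a log scale, and each panel shows a pair of related genes in stromal, basal, Sca-1+ luminal and Sca-1- luminal libraries. Circles are Sec11c, Edem2, Tmed3 and Stt3a, and squares Sec11a, Edem1, Tmed2 and Stt3b. In the first 3 panels the circles lie above the squares in Sca-1- luminal libraries and below them in basal libraries, while in the fourth they lie above in every library.

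N-glycan transfer is carried out by the oligosaccharyltransferase, and 5 of the 7 subunits among the members were lower in each of the 3 populations (Ddost, Rpn1, Rpn2, Dad1 and Ostc). Of 5 further subunits outside the members (Tusc3, Magt1, Krtcap2, Ost4 and Tmem258), 4 were lower in stromal, 5 in basal and 4 in Sca-1+ luminal libraries, and none was higher. Ostc, a subunit of the complex that works at the translocon, changed most in Sca-1+ luminal libraries. It had 55.5 and 75.8 FPKM in stromal libraries, 31.1 and 41.3 FPKM in basal libraries, 43.6, 51.6 and 55.5 FPKM in Sca-1+ luminal libraries, and 122, 118 and 127 FPKM in Sca-1- luminal libraries. Sca-1- luminal libraries were above all others. Its log2 change was -0.90 ± 0.23 (adjusted p = 0.0092) in stromal, -1.74 ± 0.23 (adjusted p = 0.00033) in basal and -1.27 ± 0.21 (adjusted p = 0.0024) in Sca-1+ luminal libraries. Without stromal replicate 1 Ostc was at -0.68 in stromal libraries and not called. Ddost, a core subunit, had the largest change of the step in stromal (-1.57 ± 0.23) and basal libraries (-2.43 ± 0.23). Rpn1 in Sca-1+ luminal libraries was near the threshold (-0.64 ± 0.21, adjusted p = 0.039) and lost its call in 6 of the 10 fits that left out 1 library, at values from -0.66 to -0.51. Dad1 lost its call in Sca-1+ luminal libraries without Sca-1+ luminal replicate 2 (-0.98) and in stromal libraries without stromal replicate 1 (-0.89).

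The catalytic subunits were the 2 members of the step that were not called. Stt3a, which acts during translocation, had 94.2 and 106 FPKM in stromal libraries, 85.6 and 81.3 FPKM in basal libraries, 112, 75.8 and 112 FPKM in Sca-1+ luminal libraries, and 169, 104 and 142 FPKM in Sca-1- luminal libraries, and Stt3b, which also acts after it, had 52.1 and 41.8 FPKM in stromal libraries, 54.3 and 35.7 FPKM in basal libraries, 64.4, 36.1 and 38.9 FPKM in Sca-1+ luminal libraries, and 69.5, 37.5 and 82.4 FPKM in Sca-1- luminal libraries. Both overlapped between Sca-1- luminal and other libraries, with Sca-1- luminal replicate 2 low for both. For Stt3a the log2 change was -0.43 ± 0.28 (adjusted p = 0.22) in stromal, -0.69 ± 0.28 (adjusted p = 0.067) in basal and -0.46 ± 0.25 (adjusted p = 0.17) in Sca-1+ luminal libraries. That of Stt3b was -0.35 ± 0.38 (adjusted p = 0.46) in stromal, -0.44 ± 0.38 (adjusted p = 0.38) in basal and -0.41 ± 0.34 (adjusted p = 0.37) in Sca-1+ luminal libraries. Stt3a was called in basal libraries without Sca-1- luminal replicate 2 (-0.88). Their ratio overlapped throughout, at 1.81 and 2.54 in stromal libraries, 1.58 and 2.28 in basal libraries, 1.73, 2.10 and 2.87 in Sca-1+ luminal libraries, and 2.43, 2.76 and 1.72 in Sca-1- luminal libraries. The exact two-sided permutation p was 1.0 for stromal, 0.4 for basal and 1.0 for Sca-1+ luminal against Sca-1- luminal libraries.

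The 5 degradation genes were lower in all 3 populations. Edem2, a mannosidase-like protein that marks misfolded glycoproteins (chr2:155701673-155729475, mm10), had 6.598 and 11.3 FPKM in stromal libraries, 6.92 and 6.85 FPKM in basal libraries, 32.7, 31.3 and 21.9 FPKM in Sca-1+ luminal libraries, and 137, 123 and 168 FPKM in Sca-1- luminal libraries. Sca-1- luminal libraries were highest, Sca-1+ luminal libraries intermediate, and stromal and basal libraries lowest, with no overlap between these 3 levels. Edem2 had log2 changes of -3.89 ± 0.28 (adjusted p = 2.4e-05) in stromal, -4.18 ± 0.28 (adjusted p = 1.2e-05) in basal and -2.29 ± 0.25 (adjusted p = 0.00047) in Sca-1+ luminal libraries. Edem1, its relative, had 16.4 and 19.4 FPKM in stromal libraries, 21.8 and 18.03 FPKM in basal libraries, 34.6, 26.2 and 17.9 FPKM in Sca-1+ luminal libraries, and 69.9, 59.1 and 63.8 FPKM in Sca-1- luminal libraries. Edem1 had log2 changes of -1.79 ± 0.27 (adjusted p = 0.00069) in stromal, -1.64 ± 0.27 (adjusted p = 0.0011) in basal and -1.30 ± 0.24 (adjusted p = 0.0045) in Sca-1+ luminal libraries. The Edem2 to Edem1 ratio was 0.401 and 0.582 in stromal libraries, 0.317 and 0.380 in basal libraries, 0.944, 1.19 and 1.22 in Sca-1+ luminal libraries, and 1.97, 2.09 and 2.64 in Sca-1- luminal libraries. None of the other groups overlapped the Sca-1- luminal ratios (exact two-sided permutation p = 0.2 for stromal, 0.2 for basal and 0.1 for Sca-1+ luminal libraries, the smallest possible).

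Sel1l and Syvn1 form the ubiquitin ligase that takes misfolded proteins out of the ER, and Herpud1 is a stress-induced partner of it. Sel1l, with the smallest change of the step in Sca-1+ luminal libraries, had 15.9 and 23.1 FPKM in stromal libraries, 9.14 and 12.0 FPKM in basal libraries, 37.8, 22.9 and 26.9 FPKM in Sca-1+ luminal libraries, and 62.5, 45.2 and 58.7 FPKM in Sca-1- luminal libraries. The 3 Sca-1- luminal libraries were above the others, the closest being Sca-1+ luminal replicate 1. Its log2 change was -1.47 ± 0.28 (adjusted p = 0.0022) in stromal, -2.28 ± 0.28 (adjusted p = 0.00022) in basal and -0.92 ± 0.25 (adjusted p = 0.021) in Sca-1+ luminal libraries. In Sca-1+ luminal libraries that call was lost without Sca-1- luminal replicate 1 (-0.83), Sca-1- luminal replicate 3 (-0.87) or with Sca-1+ luminal replicate 2 left out (-0.77). Herpud1 had 105 and 127 FPKM in stromal libraries, 67.2 and 71.4 FPKM in basal libraries, 222, 127 and 110.2 FPKM in Sca-1+ luminal libraries, and 881, 421 and 536 FPKM in Sca-1- luminal libraries. Sca-1- luminal replicate 1 was the highest of all, the 3 Sca-1- luminal libraries lay above the other 7, and stromal and Sca-1+ luminal libraries overlapped. The log2 change of Herpud1 was -2.33 ± 0.38 (adjusted p = 0.001) in stromal, -3.06 ± 0.38 (adjusted p = 0.00024) in basal and -1.99 ± 0.34 (adjusted p = 0.003) in Sca-1+ luminal libraries. Syvn1 was at -1.60 ± 0.27 in stromal, -2.0 ± 0.27 in basal and -1.41 ± 0.24 in Sca-1+ luminal libraries.

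Of the 4 export genes, all were lower in stromal and basal libraries and 3 in Sca-1+ luminal libraries. Tmed3, a p24 family protein of the early secretory pathway (chr9:89699203-89705043, mm10), had 49.4 and 85.7 FPKM in stromal libraries, 21.7 and 27.2 FPKM in basal libraries, 133, 139 and 96.9 FPKM in Sca-1+ luminal libraries, and 567, 619.5 and 768 FPKM in Sca-1- luminal libraries. The order was Sca-1- luminal, Sca-1+ luminal, stromal and basal libraries from high to low, with no overlap. Tmed3 had log2 changes of -3.29 ± 0.30 (adjusted p = 6.2e-05) in stromal, -4.68 ± 0.30 (adjusted p = 1.1e-05) in basal and -2.40 ± 0.27 (adjusted p = 0.00053) in Sca-1+ luminal libraries, and that in basal libraries was the largest of all members in any comparison. Tmed2, another p24 protein, had 165 and 189 FPKM in stromal libraries, 184 and 193 FPKM in basal libraries, 245, 246 and 226 FPKM in Sca-1+ luminal libraries, and 366, 296 and 353 FPKM in Sca-1- luminal libraries. Sca-1- luminal libraries were above the rest by a smaller margin. For Tmed2 the log2 change was -0.93 ± 0.24 (adjusted p = 0.0088) in stromal, -0.83 ± 0.24 (adjusted p = 0.017) in basal and -0.49 ± 0.21 (adjusted p = 0.094) in Sca-1+ luminal libraries. Leaving out either basal library (-0.80 and -0.87) or with Sca-1- luminal replicate 1 left out (-0.77) removed the basal call of Tmed2, and leaving out stromal replicate 1 (-0.83) the stromal call.

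The ratio of Tmed3 to Tmed2 was 0.299 and 0.454 in stromal libraries, 0.118 and 0.141 in basal libraries, 0.542, 0.566 and 0.428 in Sca-1+ luminal libraries, and 1.55, 2.10 and 2.18 in Sca-1- luminal libraries. Tmed3 exceeded Tmed2 in the Sca-1- luminal libraries and in no other library. The exact two-sided permutation p was 0.2 for stromal, 0.2 for basal and 0.1 for Sca-1+ luminal against Sca-1- luminal libraries, the smallest possible. Reads of related genes may be divided between them by the counting, which was not tested. The p24 protein Tmed10 was at -1.17 ± 0.20 in stromal, -1.60 ± 0.20 in basal and -0.98 ± 0.18 in Sca-1+ luminal libraries. Lman1, the lectin receptor that carries glycoproteins to the Golgi, was at -1.08 ± 0.27, -1.88 ± 0.27 and -1.06 ± 0.24 in the same populations, and its stromal call was lost without stromal replicate 1 (-0.99).

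The stress sensors and factors had the smallest medians of the 8 steps, and 1 of them, Ddit3, was lower in all 3 populations. Ddit3, the transcription factor CHOP induced by prolonged ER stress, had 23.1 and 55.6 FPKM in stromal libraries, 21.5 and 25.7 FPKM in basal libraries, 41.7, 48.6 and 17.9 FPKM in Sca-1+ luminal libraries, and 201, 139 and 133 FPKM in Sca-1- luminal libraries. The 3 Sca-1- luminal libraries exceeded all others. Its log2 change was -2.08 ± 0.47 (adjusted p = 0.0047) in stromal, -2.67 ± 0.47 (adjusted p = 0.0014) in basal and -2.19 ± 0.42 (adjusted p = 0.0048) in Sca-1+ luminal libraries, and without stromal replicate 1 the stromal value was -1.46 and not called. Atf4, the factor upstream of Ddit3 that is controlled mainly through translation, had 279.6 and 319 FPKM in stromal libraries, 343 and 346 FPKM in basal libraries, 189.7, 249.7 and 346 FPKM in Sca-1+ luminal libraries, and 408, 361 and 304 FPKM in Sca-1- luminal libraries. The groups overlapped, with basal libraries inside the Sca-1- luminal range. Atf4 had log2 changes of -0.25 ± 0.31 (adjusted p = 0.52) in stromal, -0.05 ± 0.31 (adjusted p = 0.93) in basal and -0.48 ± 0.28 (adjusted p = 0.2) in Sca-1+ luminal libraries, and the basal value turned positive with median-of-ratios scaling.

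Xbp1, the factor activated by splicing of its mRNA, had 131 and 204 FPKM in stromal libraries, 94.6 and 120 FPKM in basal libraries, 182, 161 and 156 FPKM in Sca-1+ luminal libraries, and 217, 167 and 176 FPKM in Sca-1- luminal libraries. Stromal replicate 2 and Sca-1+ luminal replicate 1 lay within the Sca-1- luminal range, and basal libraries lay below it. Xbp1 was called lower in basal libraries (-0.79 ± 0.27, adjusted p = 0.037), a call lost without Sca-1- luminal replicate 1 (-0.68), Sca-1- luminal replicate 3 (-0.83), Sca-1+ luminal replicate 2 (-0.79) or either basal library (-0.62 and -0.96). In stromal (-0.18 ± 0.27, adjusted p = 0.61) and Sca-1+ luminal libraries (-0.16 ± 0.24, adjusted p = 0.63) it was not called. The gene sums do not separate spliced from unspliced Xbp1 mRNA.

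Atf6, a membrane-bound sensor released by proteolysis, had 23.9 and 18.2 FPKM in stromal libraries, 16.2 and 12.6 FPKM in basal libraries, 20.97, 13.2 and 11.3 FPKM in Sca-1+ luminal libraries, and 26.8, 19.8 and 22.7 FPKM in Sca-1- luminal libraries. Stromal replicate 1 and Sca-1+ luminal replicate 1 lay within the Sca-1- luminal range, and basal libraries lay below it. The log2 change of Atf6 was -0.13 ± 0.29 (adjusted p = 0.73) in stromal, -0.65 ± 0.29 (adjusted p = 0.092) in basal and -0.61 ± 0.26 (adjusted p = 0.088) in Sca-1+ luminal libraries. Ern1, the sensor kinase IRE1 that splices Xbp1, had 11.8 and 9.48 FPKM in stromal libraries, 12.9 and 10.3 FPKM in basal libraries, 8.96, 7.95 and 6.85 FPKM in Sca-1+ luminal libraries, and 12.9, 9.06 and 11.6 FPKM in Sca-1- luminal libraries. It was the 1 member whose mean was highest in basal libraries, and its Sca-1+ luminal libraries lay just below all others. For Ern1 the log2 change was -0.06 ± 0.24 (adjusted p = 0.85) in stromal, 0.05 ± 0.24 (adjusted p = 0.89) in basal and -0.45 ± 0.21 (adjusted p = 0.12) in Sca-1+ luminal libraries. Both sensors were called lower in Sca-1+ luminal libraries under median-of-ratios scaling, Atf6 at -0.81 and Ern1 at -0.63, under quantile normalization (-0.86 and -0.74), and with the length trend removed (-1.09 and -0.82). Atf6 was also called without Sca-1+ luminal replicate 1, at -0.86 in Sca-1+ luminal and -0.65 in basal libraries. In basal libraries it was called as well with only the 2 groups compared or with Sca-1+ luminal replicate 3 alone (-0.65 in both), and at -1.05 with the length trend removed.

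Sca-1+ luminal libraries were compared with the other 2 populations as well. In basal libraries 13 of 50 members were lower than in Sca-1+ luminal libraries and 0 higher, against 15.4% of all genes lower and 4.39% higher, with a median of -0.62 over members and -0.29 over all genes. At an unadjusted p under 0.05 26 were lower and 0 higher, with no share of all genes counted at that threshold. The 13 came from 7 of the 8 steps. Sec11c (-2.30 ± 0.31, adjusted p = 0.0017), Tmed3 (-2.27 ± 0.30, adjusted p = 0.0016) and Edem2 (-1.89 ± 0.28, adjusted p = 0.0022) changed most, and the others, Dnajc3, Creld2, Pdia4, Ero1lb, Sec61b, Sec62, Spcs2, Ddost, Rpn2 and Sel1l, ranged from -1.66 (Creld2) to -0.86 (Sec62). This count rests on few libraries: it was 5 without basal replicate 1, 4 without basal replicate 2, 8 with Sca-1+ luminal replicate 2 left out, and 20 with Sca-1+ luminal replicate 3 left out. Median-of-ratios scaling moved the median of all genes by 0.26 on the log2 scale and gave 8 members lower and 2 higher (Hyou1 and Ern1), and with it the share of called genes that were higher was 47.1%, compared with 22.2% as deposited. Over all genes tested 1322 were called lower and 1179 higher with that scaling.

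In stromal libraries 3 of 50 members were lower than in Sca-1+ luminal libraries and 0 higher. Both are smaller shares than over all genes, where 11.6% were lower and 1.77% higher. The 3 were Sec11c (-1.62 ± 0.31, adjusted p = 0.0088), Edem2 (-1.59 ± 0.28, adjusted p = 0.0055) and Spcs2 (-0.83 ± 0.24, adjusted p = 0.047). At an unadjusted p under 0.05 5 were lower and 0 higher, with no share of all genes counted at that threshold. The median over members was -0.10, beside -0.16 over all genes, and median-of-ratios scaling put it at 0.18 and moved all genes by 0.22. The share of called genes that were higher was 32.5% with that scaling and 13.3% as deposited. Sca-1+ luminal replicates 1 and 2 had fibroblast sums of 5280 and 2619 FPKM, beside 7339 and 5599 FPKM in stromal libraries. With Sca-1+ luminal replicate 3 alone (367 FPKM) the median over members was -0.09. The part of fibroblast transcripts in the count of members called was not tested. Without stromal replicate 1 the count was 0, and with the 2 groups alone in the fit it was 0. Without any 1 library the highest count was 4. Sec11c, Edem2 and Spcs2 were at -1.20, -1.25 and -0.61 without stromal replicate 1, and Spcs2 lost its call in 8 of the 10 fits that left out 1 library.

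Stromal libraries exceeded basal libraries for 7 of 50 members, a share close to the 13.4% of all genes called higher. None was lower, against 9.13% of all genes. The 7 were Dnajb9 (2.01 ± 0.50), Tmed3 (1.39 ± 0.33), Dnajc3 (1.23 ± 0.32), Ero1lb (1.09 ± 0.35), Sec62 (0.90 ± 0.24), Ddost (0.87 ± 0.25) and Ostc (0.84 ± 0.25), with adjusted p from 0.016 (Tmed3) to 0.0496 (Ero1lb). At an unadjusted p under 0.05 14 were higher and 0 lower, with no share of all genes counted at that threshold. The median over members was 0.44, beside 0.02 over all genes. The count fell to 1 without basal replicate 1, 0 without basal replicate 2, 2 without stromal replicate 1, 1 without stromal replicate 2, and 4 without Sca-1- luminal replicate 1 or with Sca-1+ luminal replicate 2 left out.

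The length of a gene's most abundant transcript moved with the comparisons against Sca-1- luminal libraries over all genes. In Sca-1+ luminal libraries the median log2 change was -0.71 over 801 genes under 800 nt and 0.47 over 1638 genes above 5000 nt. In basal libraries these medians were -0.94 and 0.35, and in stromal libraries -1.06 and 0.35. Several members with large changes are short: Sec61b has 552 nt, Sec11c 770 nt, Ssr4 804 nt, Ddit3 871 nt and Sdf2l1 1108 nt, while Ssr1 has 9306 nt and Atf6 7463 nt. Over the 50 members, which share these libraries, Spearman's rho between length and log2 change was 0.33 in stromal, 0.39 in basal and 0.48 in Sca-1+ luminal libraries, beside 0.25 in stromal, 0.30 in basal and 0.29 in Sca-1+ luminal libraries over all genes.

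Against the median of all genes of like length (6 length classes), 48 of 50 members were lower in stromal, 49 in basal and 50 in Sca-1+ luminal libraries. Within 2000 to 3000 nt, the class with the most members, the 15 members had a median of -1.29 in stromal, -2.01 in basal and -1.18 in Sca-1+ luminal libraries, beside -0.04, -0.05 and 0.19 over the 2947 genes of that class. With the length trend removed from every library, 35 members were called lower in stromal, 39 in basal and 43 in Sca-1+ luminal libraries and 0 higher. Over all genes tested 3153 were then lower in stromal, 2773 in basal and 1974 in Sca-1+ luminal libraries, and 3285, 2899 and 2020 higher. Of the original member calls 32, 36 and 33 were kept. The calls lost were those of Xbp1 and of transcripts under 2000 nt: Ssr2 and Dad1 in all 3 populations, Sec11a in stromal and basal, Spcs1 and Ostc in stromal, and Tmed2 and Xbp1 in basal libraries. Sec11c, Ssr4, Sec61b, Sdf2l1 and Ddit3 kept their calls in all 3. Calls gained were those of Canx, Sec62 and Sec63 in stromal libraries and of Canx, Sec63 and Atf6 in basal libraries. In Sca-1+ luminal libraries those of Hspa5, Canx, Ero1lb, Sec61a1, Sec62, Sec63, Stt3a, Tmed2, Atf6 and Ern1 were gained.

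**Figure D5:**
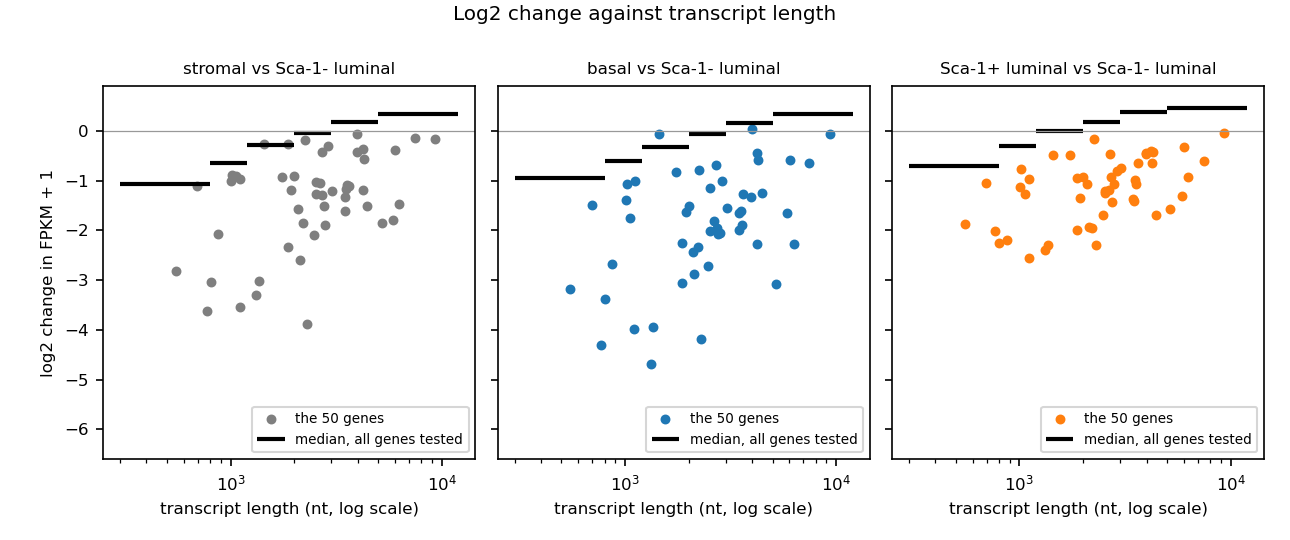
Each coloured point is 1 of the 50 genes, at its transcript length in nt (log scale) and its log2 change relative to Sca-1- luminal libraries; the panels show stromal, basal and Sca-1+ luminal libraries from left to right. Black bars are medians of all genes tested in 6 length classes. The bars climb with length, and nearly all points lie below the bar of their class.

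The wider ER machinery was measured through 78 further genes, none of them a member. In stromal libraries 40 of the 78 were lower than in Sca-1- luminal libraries and 9 higher, in basal libraries 49 lower and 2 higher, and in Sca-1+ luminal libraries 36 lower and 5 higher, with medians of -0.81 in stromal, -1.13 in basal and -0.58 in Sca-1+ luminal libraries. Over all genes tested 27.4% were lower and 25.3% higher in stromal, 25.9% and 20.2% in basal, and 13.2% and 21.8% in Sca-1+ luminal libraries. Among the 15 coat and export genes of the COPII list, 6 were lower and 2 higher in stromal libraries, 8 lower and 1 higher in basal libraries, and 3 lower and 1 higher in Sca-1+ luminal libraries. The lower shares of the COPII list lay nearer to those of all genes than the shares of the 78 did. The further degradation list held the gene with the largest difference: Derl3, which moves misfolded proteins out of the ER, had 2.99 and 6.41 FPKM in stromal libraries, 2.27 and 4.28 FPKM in basal libraries, 14.9, 20.7 and 9.07 FPKM in Sca-1+ luminal libraries, and 107, 139 and 154 FPKM in Sca-1- luminal libraries. Its Sca-1- luminal libraries lay far above the rest, and its log2 change was -4.61 ± 0.39 (adjusted p = 4.3e-05) in stromal, -5.0 ± 0.39 (adjusted p = 2.5e-05) in basal and -3.13 ± 0.35 (adjusted p = 0.0005) in Sca-1+ luminal libraries. Ero1l, the other ER oxidase and partner in function of Ero1lb, went the opposite way, with 88.8 and 162 FPKM in stromal libraries, 193 and 224 FPKM in basal libraries, 79.3, 78.04 and 18.1 FPKM in Sca-1+ luminal libraries, and 11.8, 14.4 and 6.104 FPKM in Sca-1- luminal libraries. Sca-1- luminal libraries were lowest and basal libraries highest, and its log2 change was 3.44 ± 0.61 (adjusted p = 0.0015) in stromal, 4.22 ± 0.61 (adjusted p = 0.00051) in basal and 2.15 ± 0.54 (adjusted p = 0.015) in Sca-1+ luminal libraries.

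Because plasma cells also carry much ER, their markers and those of other leukocytes were read in the same libraries. The plasma cell list held 6 genes, and 1 of them, Derl3, belongs to the ER machinery itself and was high in Sca-1- luminal libraries (given above). With it the list summed to 6.69 and 8.27 FPKM in stromal libraries, 2.61 and 4.54 FPKM in basal libraries, 16.9, 22.2 and 9.33 FPKM in Sca-1+ luminal libraries, and 108, 139 and 154 FPKM in Sca-1- luminal libraries. The other 5, Jchain, Mzb1, Tnfrsf17, Pou2af1 and Cd79a, summed to 3.71 and 1.86 FPKM in stromal libraries, 0.340 and 0.260 FPKM in basal libraries, 2.03, 1.47 and 0.260 FPKM in Sca-1+ luminal libraries, and 0.662, 0.154 and 0.341 FPKM in Sca-1- luminal libraries. In Sca-1- luminal libraries none of the 5 reached 1 FPKM, and Tnfrsf17 and Pou2af1 were listed at 0 in all 3. The leukocyte gene Ptprc was at or under 0.338 FPKM in every library, and 5 leukocyte genes together at 4.34 to 24.0 FPKM.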

How the data were processed

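RNA was extracted from sorted prostate cells, made into cDNA with random and poly(dT) priming (NuGEN Ovation) and sequenced on an Illumina HiSeq, per the labels' protocols. Per the submitters' processing notes, bcl2fastq 1.8.3, TopHat and Cufflinks were used with the mm10 build; for the last pair of tools no version is given in the sources used here. The deposited values are FPKM per transcript, computed by the authors, 1 Cufflinks table of 63241 transcripts per library, per the file headers. The strand setting is not stated, so reads of overlapping or antisense genes may be merged.

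Transcripts were matched by mm10 coordinates to GENCODE and RefSeq genes of GRCm38, the same assembly: both ends (12106 GENCODE, 9188 RefSeq), 1 end (22614 GENCODE, 3890 RefSeq) or a span overlap of at least 0.5 (5234), which named 53032 (83.9%). Transcripts under 300 nt (8006) and 7 genes with failed Cufflinks estimates were left out, and FPKM was summed per gene. Low values of isolated transcripts lay within 0.05 of whole fragments for 81.8% to 89.0%, so depth was read from them, but counts were not rebuilt. The fragment number given for Ero1lb is an estimate from FPKM, length and depth.

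Tests covered genes that reached 1 FPKM in at least 2 libraries, on log2(FPKM + 1) with a pseudocount of 1, using limma 3.58.1 in R 4.3.3 (a mean per group over all 10 libraries, eBayes with trend, 6 residual degrees of freedom), and p-values were Benjamini-Hochberg adjusted over all genes. Changes on the log2(FPKM + 1) scale understate those of low genes. The fit was tested on simulated data. Replicates were numbered in listed order, since the titles carry serial numbers of libraries but no replicate numbers. Tables and figures used Python 3.11.15, pandas 2.3.3, scipy 1.17.1 and matplotlib 3.10.9.

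Members and lists were chosen with earlier results of these data known. By rule, the text names Sdf2l1, Sec11c and Hspa5, the members with the largest and smallest change of each step between Sca-1+ and Sca-1- luminal libraries, 4 pairs of related genes, the 5 stress genes and at most 2 genes of each further list; other members were named after their values were seen. Alternatives were a pseudocount of 0.1, no filter, median-of-ratios and quantile scaling, transcripts under 300 nt kept, only the 2 groups compared, each library left out, Sca-1+ luminal replicate 3 alone and, chosen after seeing the data, removal of the trend over transcript length and a block on the run of serial numbers. One luminal marker gene is not reported here.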

Additional observations from a re-analysis of the deposited data

How the results depend on the processing

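Each alternative was applied to 173 log2 changes of members and to the counts of calls. They were the changes of all 50 members in the 3 comparisons with Sca-1- luminal libraries. From the remaining comparisons only called changes entered (13, 3 and 7), which an alternative could keep, lose or reverse but not newly call. With a pseudocount of 0.1 all 173 kept their direction and their side of the threshold, and with no filter or with transcripts under 300 nt kept 172 did. With quantile normalization 11 changed side, with only the 2 groups compared 13, with median-of-ratios scaling 20 changed side or sign, with Sca-1+ luminal replicate 3 alone 20, and with the length trend removed 32. The labels pair no libraries, but their serial numbers form 3 runs, 2 of them with all 4 populations and 1 with the luminal libraries alone. Libraries of 1 run deviated together from their group means over all genes in 12 of 13 pairs (r over 0.1, range -0.06 to 0.39), and the pair of the third run had r = -0.06. Over 24 pairs across runs r was -0.39 to 0.15 (median -0.16). The pairs are not independent: in a group of 2 libraries the deviations are equal and opposite, so values within and across runs mirror each other. With the run as a replicate block, added after seeing the data, no member call against Sca-1- luminal libraries was lost. Members called numbered 38 in stromal, 44 in basal and 39 in Sca-1+ luminal libraries, all lower, beside 6544, 5780 and 5269 of all genes in either direction. The added calls were Hspa5 at -1.33 in stromal, -1.46 in basal and -1.24 in Sca-1+ luminal libraries, Atf6 at -0.74 in basal and -0.61 in Sca-1+ luminal libraries, Sec63 at -0.61 in basal, and Dnajb9 (-0.94) and Sec62 (-0.47) in Sca-1+ luminal libraries. Against Sca-1+ luminal libraries the block gave 19 members in basal and 3 in stromal libraries, where Spcs2 lost its call (-0.76) and Sec61b gained one. Under the block Ssr1 (0.04) and Atf4 (0.01), both uncalled, were positive in basal libraries.

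Leaving out each library in turn gave 2706 to 5215 genes called in all between Sca-1+ and Sca-1- luminal libraries, 3756 to 6406 between basal and Sca-1- luminal libraries, 668 to 3576 between basal and Sca-1+ luminal libraries, 381 to 3037 between stromal and Sca-1+ luminal libraries, and 1177 to 3574 between stromal and basal libraries. The members called ranged from 4 to 20 between basal and Sca-1+ luminal libraries, 0 to 4 between stromal and Sca-1+ luminal libraries, and 0 to 8 between stromal and basal libraries. In the fits without 1 library of a pair, the lone library is taken to vary like the other groups. With Sca-1+ luminal replicate 3 alone, 2052 genes were called between Sca-1+ and Sca-1- luminal libraries and 3855 between stromal and Sca-1+ luminal libraries, and 8 members between basal and Sca-1+ luminal libraries. With only the 2 groups compared, 1390 genes were called between basal and Sca-1+ luminal libraries, and 740 genes and 0 members between stromal and Sca-1+ luminal libraries; fewer libraries then estimate the spread.

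Signs turned for differences that were not called. Relative to Sca-1- luminal libraries and over the fits without 1 library, Dnajb9 in stromal libraries ranged from -0.83 to 0.32, Xbp1 in stromal from -0.49 to 0.14, Atf6 in stromal from -0.32 to 0.06, Ern1 in stromal from -0.21 to 0.08 and in basal from -0.09 to 0.20, Atf4 in basal from -0.16 to 0.05, and Ssr1 in basal from -0.32 to 0.13 and in Sca-1+ luminal from -0.31 to 0.09. Ssr1 in Sca-1+ luminal libraries was 0.11 with replicate 3 alone. With median-of-ratios scaling Ssr1 in basal was 0.09, Atf4 in basal 0.11 and Ern1 in stromal libraries 0.01. With the length trend removed Atf4 was 0.43 in basal and 0.07 in stromal libraries, and Ern1 -0.10 in basal libraries. The cause was not tested.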

Other observations

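Among the further ER genes, 2 with roles close to the members had large differences; they and the genes after them were chosen after their values were seen. Fkbp11, a peptidyl-prolyl isomerase of secretory cells, had 14.2 and 26.5 FPKM in stromal libraries, 11.7 and 13.8 FPKM in basal libraries, 34.6, 47.9 and 22.9 FPKM in Sca-1+ luminal libraries, and 238, 376 and 263 FPKM in Sca-1- luminal libraries. Sca-1- luminal libraries were above all others, with log2 changes of -3.81 ± 0.36 (adjusted p = 7.1e-05) in stromal, -4.39 ± 0.36 (adjusted p = 2.9e-05) in basal and -3.05 ± 0.32 (adjusted p = 0.00043) in Sca-1+ luminal libraries. Krtcap2, a subunit of the oligosaccharyltransferase, had 116 and 176 FPKM in stromal libraries, 81.6 and 126 FPKM in basal libraries, 109, 181 and 183 FPKM in Sca-1+ luminal libraries, and 557, 724 and 671 FPKM in Sca-1- luminal libraries, again without overlap, and log2 changes of -2.17 ± 0.34 (adjusted p = 0.00079) in stromal, -2.66 ± 0.34 (adjusted p = 0.00027) in basal and -2.07 ± 0.30 (adjusted p = 0.0016) in Sca-1+ luminal libraries. Its transcript has 516 nt, and genes under 800 nt had negative medians in the same comparisons.

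Among the membrane-bound factors related to Atf6, Creb3l4 was highest in Sca-1- luminal libraries and Creb3l1 in stromal libraries. Creb3l4 had 0.866 and 1.003 FPKM in stromal libraries, 1.301 and 0.284 FPKM in basal libraries, 4.31, 3.28 and 1.34 FPKM in Sca-1+ luminal libraries, and 23.8, 13.7 and 23.1 FPKM in Sca-1- luminal libraries. Its 3 Sca-1- luminal libraries exceeded the other 7, with log2 changes of -3.42 ± 0.41 (adjusted p = 0.00021) in stromal, -3.59 ± 0.41 (adjusted p = 0.00014) in basal and -2.46 ± 0.36 (adjusted p = 0.0016) in Sca-1+ luminal libraries. Creb3l1, by contrast, had 38.9 and 45.4 FPKM in stromal libraries, 1.18 and 1.201 FPKM in basal libraries, 27.6, 14.6 and 2.42 FPKM in Sca-1+ luminal libraries, and 2.49, 1.86 and 3.52 FPKM in Sca-1- luminal libraries. Stromal libraries were highest, and the 2 Sca-1+ luminal libraries with the highest fibroblast sums (5280 and 2619 FPKM) came next. Creb3l1 had log2 changes of 3.6 ± 0.70 (adjusted p = 0.0023) in stromal, -0.70 ± 0.70 (adjusted p = 0.45) in basal and 1.69 ± 0.62 (adjusted p = 0.06) in Sca-1+ luminal libraries. The part of the fibroblast markers in these values was not tested.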
